A study of Homo sapiens with 6 samples.

Results

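The ATF4 amino acid stress response genes described here are 10 genes, ATF4 itself and 9 genes that are known as its targets or partners: ASNS, PSAT1, PHGDH, DDIT3, DDIT4, TRIB3, CHAC1, SESN2 and SLC7A11. They were taken by name, with earlier results of these data known, and all 10 were found among the 35410 genes listed with counts. RNA was measured in 6 libraries labelled as SEM, an established human B cell precursor leukemia (proB) cell line known to carry the KMT2A::AFF1 fusion. SEM::mock had been transfected with an empty vector and SEM::EGR3 with a vector for overexpression of the transcription factor EGR3. Both lines had received 1 µg/mL doxycycline, which switches on the transgene, for 48 h before RNA was taken, and each is represented by 3 biological replicates. Whether the lines are clones or mixed populations was not given in the sources used here. The comparison asks which of these genes were higher or lower in SEM::EGR3 than in the empty vector control, SEM::mock.

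ATF4 is a transcription factor of the basic leucine zipper (bZIP) family and the main effector of the integrated stress response. When amino acids run short, or when unfolded protein, double-stranded RNA or lack of heme is sensed, a kinase phosphorylates the initiation factor eIF2 alpha, protein synthesis slows and the ATF4 messenger is translated more efficiently. ATF4 then switches on genes for making and importing amino acids, for charging tRNA and for restraining the growth kinase mTORC1, and if the stress persists it also raises factors that favour cell death. Because ATF4 is set largely at translation, the count of its messenger does not measure its protein. In leukemic lymphoblasts the pathway is well known from asparaginase treatment, to which cells can respond by raising asparagine synthetase.

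ATF4 binds DNA together with a partner of the C/EBP family at an element with the core TGATGNAA. This element was searched on both strands of the RefSeq promoter of each gene (GRCh38.p14, 250 bases before to 50 bases after the annotated start), together with the CCAAT box, a common promoter element bound by the factor NF-Y, and with GCGNGGGCG, the core bound by EGR factors. A promoter was at hand for 9 of the 10 genes, all but SLC7A11. Only the first listed promoter of each gene was searched, both here and for the shares over all promoters. ATF4, ASNS and DDIT3 had 2 promoters listed and TRIB3 had 3, so a missing match covers only the first of them. TGATGNAA occurred in 2 of these 9, ASNS and CHAC1, and in 3.67% of all 27305 promoters of that length. GCGNGGGCG occurred in 0 of the 9 and in 9.28% of all promoters. CCAAT or its reverse ATTGG occurred in 6 of the 9, PSAT1, PHGDH, DDIT3, DDIT4, CHAC1 and SESN2, and in 35.7% of all promoters. The 2 matches to the ATF4 element are shown within 30 bases each, with the element in capitals.
ASNS (minus strand, GRCh38.p14, chr7:97872458-97872487): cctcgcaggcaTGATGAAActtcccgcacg
CHAC1 (plus strand, GRCh38.p14, chr15:40953251-40953280): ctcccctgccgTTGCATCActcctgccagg
The match begins at position -68 relative to the start of ASNS, on the strand of the gene, and at position -209 of CHAC1, on the opposite strand. These positions count from the RefSeq start, which in both genes lies downstream of the outermost GENCODE gene start given with each gene below, and all 30 bases of both windows fall in exons of annotated transcripts that start further upstream. PSAT1 and SESN2, the genes with the largest fitted increase and decrease of the 10, are shown with the 250 bases before their starts. Capitals mark the CCAAT boxes.
PSAT1 (plus strand, GRCh38.p14, chr9:78296875-78297124): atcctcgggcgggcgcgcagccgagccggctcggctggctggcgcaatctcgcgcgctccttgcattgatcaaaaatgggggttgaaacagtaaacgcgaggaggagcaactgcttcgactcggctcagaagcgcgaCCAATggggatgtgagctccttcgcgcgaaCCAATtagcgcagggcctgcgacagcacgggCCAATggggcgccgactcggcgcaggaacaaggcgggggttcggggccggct
SESN2 (plus strand, GRCh38.p14, chr1:28259268-28259517): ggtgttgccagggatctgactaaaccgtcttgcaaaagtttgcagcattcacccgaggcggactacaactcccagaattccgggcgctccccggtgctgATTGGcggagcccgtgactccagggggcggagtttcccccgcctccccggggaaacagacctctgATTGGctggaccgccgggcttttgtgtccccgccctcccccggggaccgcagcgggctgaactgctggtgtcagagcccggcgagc
PSAT1 held 3 such boxes, beginning at positions -113, -83 and -52, all on the strand of the gene. SESN2 held 2, at -151 and -86, both on the opposite strand. A match describes the letters of the window and is not a bound site.

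The counts per library summed to between 5286115 and 6181388 in SEM::mock and between 7293092 and 15106018 in SEM::EGR3, so low counts were known less precisely in SEM::mock. Levels are given as CPM (counts per 1000000 counts, scaled between libraries by TMM), and calls were made by edgeR's quasi-likelihood test at an adjusted p under 0.05 over 15465 tested genes. EGR3 itself was counted 8, 10 and 6 times in SEM::mock and 9768, 4952 and 5557 times in SEM::EGR3, which matches the labels. Defining markers of the labelled proB identity were nearly absent in SEM::mock. The summed level of 12 B lineage markers was 2.65 to 5.88 CPM in SEM::mock and 497 to 524 CPM in SEM::EGR3. In SEM::mock, 9 of the 12 had at most 3 counts in each library, and EBF1, DNTT, RAG2 and BLNK had none. In SEM::EGR3, DNTT, RAG2 and BLNK were at most at 3 counts in each library. The 7 targets of KMT2A fusions summed to 47.3 to 54.3 CPM in SEM::mock, with HOXA7 at 0, and to 882 to 942 CPM in SEM::EGR3. The 14 erythroid markers, by contrast, were high in both lines, at 4986 to 5289 CPM in SEM::mock and 6197 to 6446 CPM in SEM::EGR3, with HBB and HBE1 at 3 counts or fewer throughout. The 9 myeloid markers found of 10 summed to 351 to 367 and 227 to 230.3 CPM, the 10 T cell markers to 87.1 to 99.6 and 133 to 145 CPM, and the 8 epithelial and fibroblast markers to 750.1 to 782 and 542 to 569 CPM, in SEM::mock and SEM::EGR3. The last 2 sums hide opposite moves of single markers, of which 4 were picked after their values were seen. From SEM::mock to SEM::EGR3 (mean ± SD, n = 3 libraries each), CD3D went from 58.1 ± 2.33 to 6.26 ± 0.900 CPM and TRAC from 1.21 ± 0.344 to 74.7 ± 3.20 CPM. KRT18 went from 318 ± 4.53 to 89.7 ± 8.01 CPM, and the counts of PDGFRB from 0, 1 and 0 to 1366, 682 and 813. Whether the libraries labelled SEM::mock and SEM::EGR3 stem from the same parent cells was not tested. Because the markers move with the line, an effect of EGR3 and any other difference between the 2 lines cannot be told apart in the results that follow, and the part of the marker difference in them was not tested.

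Across the 10 genes, the response was mixed. Of the 9 that passed the filter on low counts, 6 were higher in SEM::EGR3 (PSAT1, DDIT4, CHAC1, PHGDH, DDIT3 and ATF4), 1 was lower (SESN2) and 2 were not called (TRIB3 and SLC7A11). ASNS was too low to be tested. Over all tested genes, 36.5% were called higher and 32.0% lower. Over the 9 genes the median log2 fold change was 0.44, and over all tested genes 0.03. All 3 libraries of SEM::EGR3 lay above all 3 of SEM::mock for 6 of the 9 genes, against 37.5% of all tested genes, and below them for 2 of the 9, against 32.6%. A log2 fold change of at least 1 in either direction was seen for PSAT1 and SESN2 alone among the 9, and 25.2% of all tested genes were called with such a change. In these bulk libraries, fewer cells of a type and less RNA per cell cannot be told apart.

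**Figure D1:**
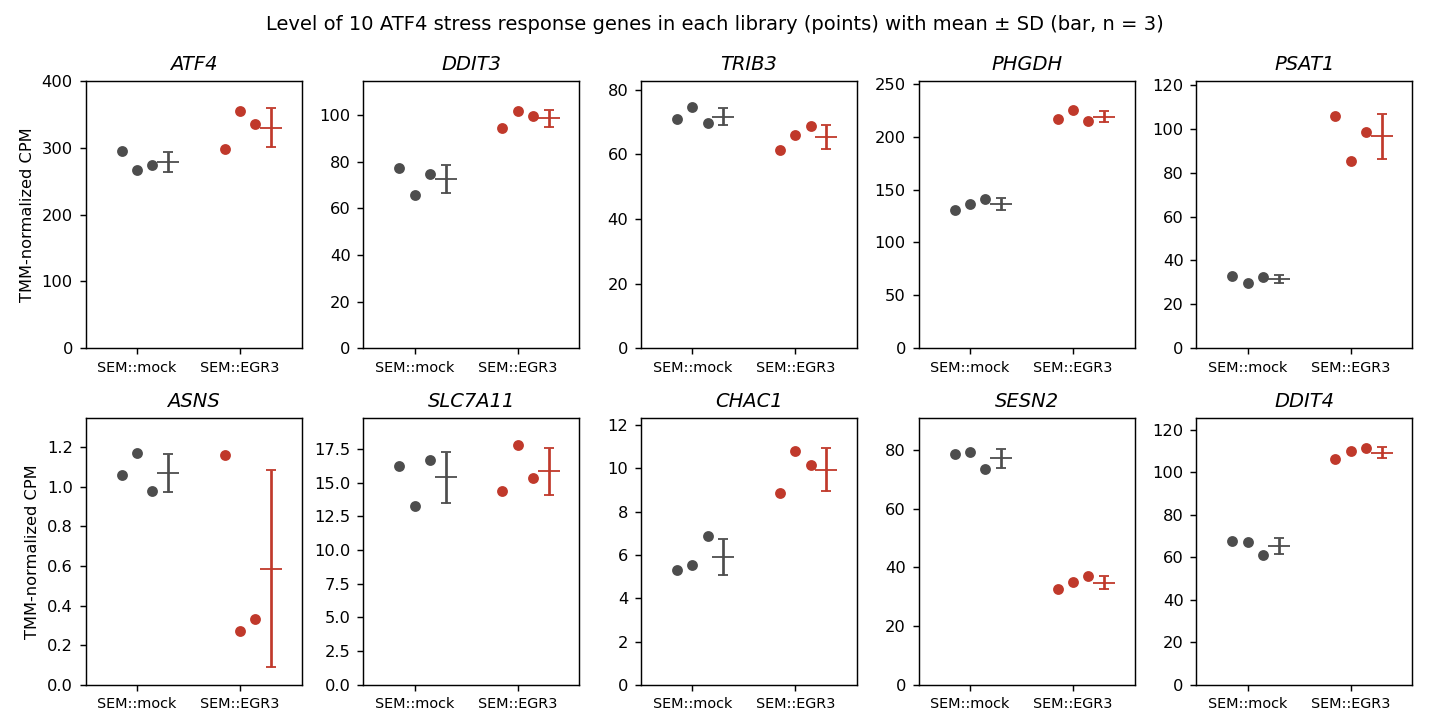
TMM-normalized CPM (linear axes from 0, scaled for each gene) of the 10 genes in each of the 3 SEM::mock and 3 SEM::EGR3 libraries, as points, with the mean and SD beside them. PSAT1 shows the largest separation upward, from a mean of 31.6 to 96.5 CPM, SESN2 lies lower in all 3 SEM::EGR3 libraries, and SLC7A11 and ASNS overlap between the lines.

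Replicates of the 9 tested genes lay close together. Their coefficient of variation ran from 3.53% to 14.3% in SEM::mock (median 5.69%) and from 2.38% to 11.04% in SEM::EGR3 (median 6.15%). Over all tested genes the medians were 9.04% and 7.27%.

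The factor ATF4 (ENSG00000128272, chromosome 22, 39519695 to 39522685, plus strand, GRCh38) is the regulator of the set. It stood at 295, 267 and 274 CPM in SEM::mock and at 299, 356 and 336 CPM in SEM::EGR3. The libraries did not overlap, but the lowest of SEM::EGR3 lay only just above the highest of SEM::mock. The mean was 278 ± 14.6 CPM in SEM::mock and 330.1 ± 28.9 CPM in SEM::EGR3, where each ± is the SD over n = 3 libraries here and throughout. The log2 fold change was 0.24 (SE 0.06, adjusted p = 0.00125 by edgeR) with a 95% confidence interval of 0.11 to 0.37. This was the smallest called increase of the 10 genes. Reads of ATF4 and of its processed pseudogenes may be hard to assign, since ATF4P3 had 474 counts over the SEM::mock libraries and 1179 over the SEM::EGR3 libraries, and ATF4P4 615 and 1288, beside 4658 and 10311 for ATF4. With the pseudogene counts added, the log2 fold change of ATF4 was 0.25 (SE 0.06, adjusted p = 0.00127).

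Downstream of ATF4 lie a partner that turns the response towards cell death and a pseudokinase that restrains it. DDIT3 (ENSG00000175197, chromosome 12, 57516588 to 57521737, minus strand) encodes CHOP, a C/EBP-related bZIP factor of prolonged stress. It was measured at 77.2, 65.8 and 74.7 CPM in SEM::mock and at 94.6, 102 and 99.8 CPM in SEM::EGR3. All 3 SEM::EGR3 libraries were higher, and the mean rose from 72.6 ± 5.99 to 98.8 ± 3.72 CPM (log2 fold change 0.44, SE 0.07, adjusted p = 2.98e-06 by edgeR). DDIT3 shares 355 of its 1307 exon bases, and 68 of the last 500, with MARS on the opposite strand, and the use of strand in counting was not given in the sources used here.

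TRIB3 (ENSG00000101255, chromosome 20, 362835 to 397559, plus strand) encodes a tribbles pseudokinase that binds ATF4 and CHOP and dampens their activity. Its level was 71.0, 74.5 and 69.6 CPM in SEM::mock and 61.3, 65.9 and 68.6 CPM in SEM::EGR3. The SEM::EGR3 libraries all lay below those of SEM::mock, by a small margin, with means of 65.3 ± 3.68 and 71.7 ± 2.53 CPM. The log2 fold change was -0.14 (SE 0.07, unadjusted p = 0.0438, adjusted p = 0.0626 by edgeR), so TRIB3 did not pass the test. Without SEM::mock replicate 3, and also without SEM::EGR3 replicate 3, it was called lower at a log2 fold change of -0.18 (adjusted p = 0.0462 in both fits). Over all alternatives its adjusted p ran from 0.0462 to 0.401.

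The serine synthesis enzymes rose together. PHGDH (ENSG00000092621, chromosome 1, 119648411 to 119744226, plus strand) oxidises 3-phosphoglycerate and so commits carbon from glycolysis to serine. It was found at 131, 137 and 141 CPM in SEM::mock and at 217, 225 and 215 CPM in SEM::EGR3. With groups well apart and replicates close, the mean rose 1.61-fold, from 136 ± 5.42 to 219 ± 5.21 CPM (log2 fold change 0.69, SE 0.06, adjusted p = 6.74e-11 by edgeR).

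PSAT1 (ENSG00000135069, chromosome 9, 78297143 to 78330093, plus strand) encodes the aminotransferase of the next step, which draws its nitrogen from glutamate. Its CPM values were 32.9, 29.5 and 32.6 in SEM::mock and 106, 85.3 and 98.6 in SEM::EGR3. Every SEM::EGR3 library lay far above every SEM::mock library. The mean rose from 31.6 ± 1.87 to 96.5 ± 10.4 CPM, a 3.08-fold difference (log2 fold change 1.62, SE 0.09, adjusted p = 1.34e-14 by edgeR). PSPH, the phosphatase that completes serine synthesis, rose less, from 28.7 ± 2.67 to 39.3 ± 3.53 CPM (log2 fold change 0.45, SE 0.09, adjusted p = 0.000153). The 3 enzymes of the route were therefore all called higher, with PSAT1 showing the largest fitted change.

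ASNS (ENSG00000070669, chromosome 7, 97852118 to 97872542, minus strand) makes asparagine from aspartate and glutamine and is the ATF4 target best known in lymphoblastic leukemia. It was counted only 6, 7 and 5 times in SEM::mock and 18, 2 and 3 times in SEM::EGR3, or 1.06, 1.17 and 0.981 against 1.16, 0.269 and 0.332 CPM. SEM::EGR3 replicate 1 lay within the range of SEM::mock and the other 2 SEM::EGR3 libraries below it. The gene did not pass the filter on low counts. In a fit without that filter its log2 fold change was -0.60 (SE 0.49, adjusted p = 0.407 by edgeR), so a difference was not detectable at this depth.

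These low counts come with a limit of annotation. A second annotated locus on the same strand, AC079781.5 (ENSG00000284707), covers 1985 of the 4455 exon bases of ASNS and all 500 of the last 500, the end that MACE-Seq reads, and AC079781.5 itself had 2 counts over the SEM::mock libraries and 0 over the SEM::EGR3 libraries. How reads that fit both loci were counted was not given in the sources used here, and its part in the level of ASNS was not tested. The pseudogene ASNSP1 had more counts than ASNS, with 33, 33 and 40 in SEM::mock and 37, 8 and 15 in SEM::EGR3, and ASNSP4 had 2, 5 and 8 against 6, 4 and 2. With the counts of ASNS and its named pseudogenes added, a sum formed after the values were seen, the level was 8.45 ± 1.70 CPM in SEM::mock and 2.68 ± 1.101 CPM in SEM::EGR3. That sum was called lower in SEM::EGR3 (log2 fold change -1.51, SE 0.23, adjusted p = 3.58e-06 by edgeR). Which share of these reads comes from ASNS messenger cannot be told from the counts.

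**Figure D2:**
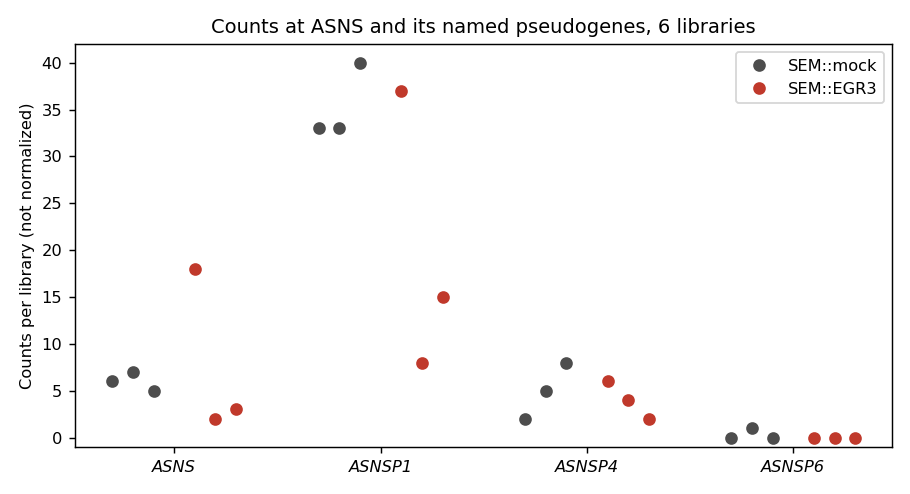
Counts per library, not normalized, at ASNS and its named pseudogenes ASNSP1, ASNSP4 and ASNSP6, with 3 SEM::mock and 3 SEM::EGR3 libraries as points. ASNSP1 holds 33 to 40 counts in SEM::mock and ASNS itself 5 to 7, and the highest ASNS count, 18, is in SEM::EGR3 replicate 1, the most deeply sequenced library.

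A further pair of genes acts on cysteine and glutathione. SLC7A11 (ENSG00000151012, chromosome 4, 138164097 to 138242349, minus strand) is the transport subunit of the cystine and glutamate exchanger that supplies cysteine for glutathione. Its levels were 16.3, 13.2 and 16.7 CPM in SEM::mock and 14.4, 17.8 and 15.4 CPM in SEM::EGR3. The libraries of the lines were interleaved, with means of 15.4 ± 1.88 and 15.8 ± 1.75 CPM. The log2 fold change was 0.02 (SE 0.13, adjusted p = 0.879 by edgeR), with a 95% confidence interval of -0.24 to 0.29.

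CHAC1 (ENSG00000128965, chromosome 15, 40952962 to 40956519, plus strand) encodes an enzyme that breaks down glutathione and is induced late in the response. It had few counts, at 5.30, 5.53 and 6.86 CPM in SEM::mock and 8.84, 10.8 and 10.2 CPM in SEM::EGR3, which corresponds to 30 to 35 and 80 to 137 counts. The groups did not overlap, and the mean rose 1.66-fold, from 5.90 ± 0.844 to 9.93 ± 0.992 CPM (log2 fold change 0.73, SE 0.17, adjusted p = 0.00057 by edgeR). Its fitted change was close to that of DDIT4 but known with less precision, as the widest 95% confidence interval among the 9 genes shows in the plot of fitted changes.

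The pair that restrains mTORC1 moved in opposite directions. SESN2 (ENSG00000130766, chromosome 1, 28259527 to 28282491, plus strand) encodes sestrin 2, a leucine sensor that holds the GATOR2 complex in check when leucine is scarce. It stood at 78.8, 79.2 and 73.5 CPM in SEM::mock and at 32.6, 35.0 and 36.9 CPM in SEM::EGR3. All 3 SEM::EGR3 libraries were far below those of SEM::mock. The mean fell from 77.2 ± 3.17 to 34.9 ± 2.14 CPM, so that the level was 2.23-fold higher in SEM::mock (log2 fold change -1.16, SE 0.07, adjusted p = 4.39e-13 by edgeR).

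DDIT4 (ENSG00000168209, chromosome 10, 72273920 to 72276036, plus strand) encodes REDD1, which releases the TSC complex to inhibit mTORC1. It was measured at 67.5, 67.3 and 61.0 CPM in SEM::mock and at 106, 109.9 and 111 CPM in SEM::EGR3. The replicates of each line lay close together and the lines well apart, and the mean rose 1.67-fold, from 65.3 ± 3.71 to 109 ± 2.61 CPM (log2 fold change 0.74, SE 0.06, adjusted p = 2.38e-10 by edgeR). DDIT4-AS1, an antisense gene not analysed here, covers 847 of the 2058 exon bases of DDIT4 and 281 of the last 500, so that without strand its reads could not be told from those of DDIT4.

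**Figure D3:**
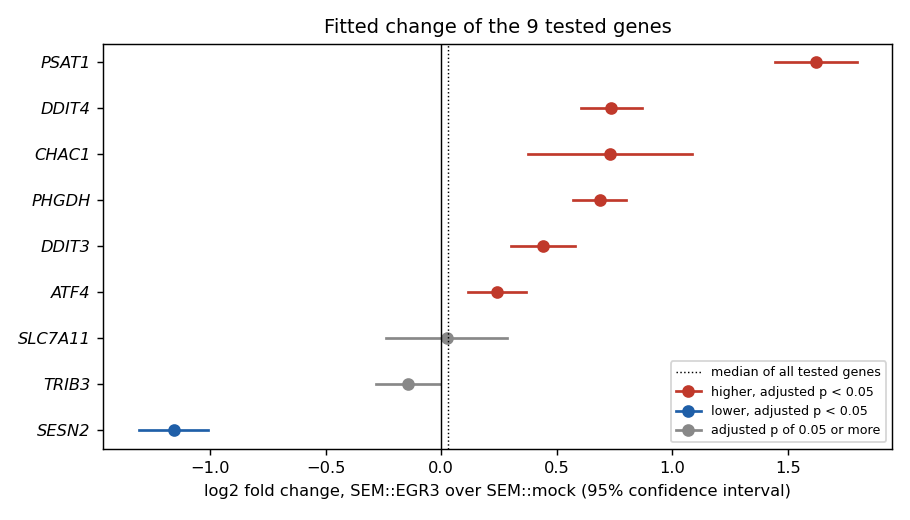
Fitted log2 fold change of SEM::EGR3 over SEM::mock (horizontal axis) for the 9 tested genes, with 95% confidence intervals from the edgeR fit over 3 libraries per line. The dotted line is the median of all tested genes, 0.03; 6 genes lie to its right with intervals above 0, from 0.24 for ATF4 to 1.62 for PSAT1, and SESN2 lies at -1.16.

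Around these 10 genes, 112 further genes of the pathway were examined by role, of which 111 were listed and 106 tested. Of the 106, 42 were called higher, 46 lower and 18 were not called, with a median log2 fold change of -0.02, beside 36.5% higher and 32.0% lower over all tested genes. The wider pathway thus held about as many calls in each direction.

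Upstream of ATF4, the kinases that phosphorylate eIF2 alpha did not move together. The list held 9 genes for these kinases, their regulators, eIF2 alpha and its phosphatase subunits. Of the 9, 1 was higher, 4 were lower and 4 were not called (median -0.08). Among all tested genes, 36.5% were called higher and 32.0% lower. EIF2AK3, the kinase PERK of the endoplasmic reticulum, was higher at 15.4 ± 1.37 against 8.27 ± 0.910 CPM (log2 fold change 0.92, SE 0.14, adjusted p = 3.39e-06 by edgeR). EIF2AK1, the kinase HRI that responds to lack of heme, was lower at 103 ± 5.66 against 199 ± 11.7 CPM (log2 fold change -0.96, SE 0.06, adjusted p = 4.26e-13). The amino acid sensor EIF2AK4, or GCN2, was at 29.7 ± 1.72 and 29.98 ± 2.86 CPM in SEM::EGR3 and SEM::mock (adjusted p = 0.879) and EIF2AK2, the RNA-sensing PKR, at 49.9 ± 2.94 and 51.0 ± 1.32 CPM (adjusted p = 0.805). The scaffold GCN1, through which GCN2 is activated, was lower by edgeR at a log2 fold change of -0.33 (adjusted p = 0.000118), and so was IMPACT, an inhibitor of that activation, at -1.23 (adjusted p = 1.16e-10). PPP1R15A, the stress-induced phosphatase subunit GADD34 and a known ATF4 target, was lower at 47.0 ± 0.743 against 62.4 ± 3.22 CPM (log2 fold change -0.40, adjusted p = 1.54e-05). Its constitutive counterpart PPP1R15B, at -0.08 (adjusted p = 0.288), and EIF2S1, the gene of eIF2 alpha, at 0.09 (adjusted p = 0.148), did not pass the test, although EIF2S1 did at 0.17 without normalization factors (adjusted p = 0.0101) and at 0.14 with at least 10 counts in every library (adjusted p = 0.028).

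Of 7 genes for bZIP factors listed as partners or relatives of ATF4, 5 were called higher, 0 lower and 2 were not called (median 0.26). Beside them, 36.5% of all tested genes were called higher and 32.0% lower. CEBPB, 1 of the 5, had overlapping libraries and an adjusted p of 0.0281 by edgeR. Its call was lost in 5 of 14 alternatives, DESeq2 (adjusted p = 0.0762) among them. Leaving out SEM::mock replicate 1 gave 4 higher and 2 lower, and leaving out SEM::EGR3 replicate 3 gave 5 higher and 1 lower. The largest change was that of JDP2, a repressor of the AP-1 family, from 12.6 ± 1.51 to 38.8 ± 3.12 CPM (log2 fold change 1.599, SE 0.11, adjusted p = 3.13e-12 by edgeR). ATF5, a relative of ATF4 under the same translational control, reached 48.0 ± 1.33 CPM from 25.1 ± 3.42 (log2 fold change 0.93, SE 0.09, adjusted p = 1.77e-09), and ATF3, a stress-induced repressor, 14.5 ± 0.334 CPM from 8.92 ± 2.00 (log2 fold change 0.69, SE 0.15, adjusted p = 0.000174).

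Paralogs of the 10 genes were called in both directions, with 4 of 5 tested higher and 1 lower (median 0.70). Beside them, 36.5% of all tested genes were called higher and 32.0% lower. Among the sestrins, SESN2 fell while SESN1 rose from 16.2 ± 1.45 to 26.6 ± 0.641 CPM (log2 fold change 0.70, SE 0.10, adjusted p = 1.85e-06 by edgeR) and SESN3 from 14.7 ± 1.04 to 31.7 ± 3.33 CPM (log2 fold change 1.12, SE 0.11, adjusted p = 2.04e-09). SESN1 is known as a target of p53 and SESN3 as a target of FOXO factors. Among the tribbles genes, TRIB1 rose from 17.3 ± 1.92 to 57.6 ± 3.999 CPM (log2 fold change 1.73, SE 0.10, adjusted p = 4.09e-14) and TRIB2 fell from 202 ± 2.62 to 109.9 ± 4.35 CPM (log2 fold change -0.88, SE 0.06, adjusted p = 5.60e-13), with TRIB3 between them and not called. CHAC2, the constitutive relative of CHAC1, was higher at a log2 fold change of 0.34 (SE 0.13, adjusted p = 0.0225), a call that was lost without SEM::mock replicate 3 (adjusted p = 0.150), without SEM::EGR3 replicate 1 (adjusted p = 0.0606) and with DESeq2 (adjusted p = 0.088). DDIT4L had 1, 1 and 0 counts in SEM::mock and 0 in SEM::EGR3 and was not tested. Whether paralogs differed from each other in their response was not tested.

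In the list of 12 enzymes of amino acid and one-carbon metabolism, 6 were higher, 5 lower and 1 was not called (median 0.18). Beside them, 36.5% of all tested genes were called higher and 32.0% lower. MTHFD2, called higher (log2 fold change 0.15, adjusted p = 0.0169 by edgeR), lost that call in 6 of 14 alternatives. GPT2, the mitochondrial alanine aminotransferase and an ATF4 target, showed the largest increase of that list. It was at 14.3, 13.4 and 16.7 CPM in SEM::mock and at 151, 159 and 156 CPM in SEM::EGR3. Its mean was 10.5-fold higher in SEM::EGR3 (log2 fold change 3.39, SE 0.08, adjusted p = 2.68e-21 by edgeR). SHMT2, which passes a carbon of serine to mitochondrial folate, rose from 199.5 ± 2.73 to 352 ± 19.8 CPM (log2 fold change 0.82, SE 0.06, adjusted p = 2.16e-12). In contrast, ALDH1L2, a mitochondrial folate enzyme, fell from 6.70 ± 1.12 to 1.40 ± 0.443 CPM (log2 fold change -2.37, SE 0.26, adjusted p = 1.88e-08). The transsulfuration enzymes, which make cysteine from homocysteine, were both lower, CBS at 61.1 ± 2.67 against 171 ± 11.3 CPM (log2 fold change -1.48, SE 0.06, adjusted p = 2.34e-16) and CTH at 5.87 ± 0.884 against 12.2 ± 1.71 CPM (log2 fold change -1.03, SE 0.16, adjusted p = 4.88e-06).

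Of 10 tested amino acid transporters other than SLC7A11, 3 were higher, 5 lower and 2 not called (median -0.05). Beside them, 36.5% of all tested genes were called higher and 32.0% lower. SLC3A2, called lower (log2 fold change -0.17, adjusted p = 0.0469 by edgeR), had overlapping libraries. It lost that call in 8 of 14 alternatives, DESeq2 (adjusted p = 0.0826) among them. The cationic amino acid carrier SLC7A1 rose from 58.7 ± 7.86 to 102.7 ± 10.96 CPM, the glutamine carrier SLC38A1 from 39.3 ± 3.15 to 72.6 ± 5.49 CPM and the lysosomal SLC36A4 from 3.75 ± 0.756 to 6.88 ± 1.37 CPM, with adjusted p-values of 6.17e-09, 3.27e-10 and 0.00131 by edgeR. The glutamine carrier SLC1A5 fell from 350.03 ± 18.2 to 231 ± 8.99 CPM, the leucine carrier SLC7A5 from 215 ± 13.0 to 165 ± 5.19 CPM and the glycine carrier SLC6A9 from 8.10 ± 0.795 to 3.67 ± 1.05 CPM, with adjusted p-values of 6.97e-10, 1.53e-06 and 6.12e-05.

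The cytosolic aminoacyl-tRNA synthetases, which charge tRNA and are a large block of known ATF4 targets, went against the serine enzymes. Counted with the tRNA exporter XPOT, 0 of 13 were higher, 11 were lower and 2 were not called. Among all tested genes, 36.5% were called higher and 32.0% lower. The log2 fold changes of the 13 ran from -0.70 to 0.02 (median -0.35). The number lower was 9 without normalization factors, and the call of AARS1 (log2 fold change -0.13, adjusted p = 0.039 by edgeR) was lost in 10 of 14 alternatives, DESeq2 (adjusted p = 0.0649) among them. Leaving out SEM::mock replicate 2 or any 1 of the SEM::EGR3 libraries also ended that call. The largest decreases were those of EPRS1, from 271 ± 7.27 to 167 ± 5.77 CPM (log2 fold change -0.70, SE 0.05, adjusted p = 2.65e-11 by edgeR), GARS1, from 152 ± 11.9 to 95.6 ± 4.62 CPM (log2 fold change -0.66, SE 0.06, adjusted p = 1.50e-09), and YARS1, from 336 ± 22.0 to 225 ± 8.44 CPM (log2 fold change -0.58, SE 0.06, adjusted p = 2.08e-09).

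Of 13 tested other stress-induced targets, 6 were higher, 6 lower and 1 was not called (median -0.00). The shares over all tested genes were 36.5% higher and 32.0% lower. GDF15, a secreted stress hormone, was at 248, 244 and 248 CPM in SEM::mock and at 762, 787 and 807 CPM in SEM::EGR3, a log2 fold change of 1.67 (SE 0.05, adjusted p = 3.10e-19 by edgeR). VLDLR, a lipoprotein receptor, was counted 2, 2 and 4 times in SEM::mock and 152, 69 and 89 times in SEM::EGR3 (log2 fold change 4.30, SE 0.30, adjusted p = 4.55e-12). The secreted glycoprotein gene STC2 rose from 7.56 ± 0.587 to 22.5 ± 1.47 CPM (log2 fold change 1.58, SE 0.13, adjusted p = 8.81e-11). TNFRSF10B, the TRAIL death receptor DR5 and a known CHOP target, was lower, from 38.9 ± 1.01 to 10.03 ± 0.889 CPM (log2 fold change -1.98, SE 0.10, adjusted p = 1.01e-14). NIBAN1, a stress-induced regulator of translation, fell from 23.4 ± 3.33 to 9.40 ± 1.68 CPM (log2 fold change -1.31, SE 0.14, adjusted p = 5.71e-09), and the peptide hormone gene ADM2 from 2.42 ± 0.552 to 0.738 ± 0.185 CPM (log2 fold change -1.60, SE 0.35, adjusted p = 0.000248).

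The mTORC1 arm, on which SESN2 and DDIT4 act, held 6 genes higher, 5 lower and 2 not called of 13 (median 0.04). The shares over all tested genes were 36.5% higher and 32.0% lower. TSC2, the subunit through which DDIT4 signals, rose from 23.6 ± 0.428 to 40.5 ± 0.519 CPM (log2 fold change 0.78, SE 0.08, adjusted p = 1.39e-08 by edgeR). The GATOR1 genes DEPDC5 and NPRL2, inhibitors of mTORC1, were higher at log2 fold changes of 0.72 (SE 0.15, adjusted p = 0.000212) and 0.34 (SE 0.10, adjusted p = 0.00419), the latter lost without SEM::mock replicate 2 (adjusted p = 0.0552). The remaining GATOR1 gene, NPRL3, was lower at -0.28 (SE 0.07, adjusted p = 0.00146), so that the GATOR1 genes did not move together. The GATOR2 genes MIOS and WDR59, whose complex sestrin 2 binds, were lower at -1.44 (SE 0.12, adjusted p = 7.35e-11) and -0.76 (SE 0.09, adjusted p = 1.31e-07). Of the other GATOR2 genes, SEH1L was higher at 0.33 (SE 0.07, adjusted p = 0.000228) and SEC13 at 0.18 (SE 0.06, adjusted p = 0.00871), the latter lost without SEM::mock replicate 3 (adjusted p = 0.0878), and WDR24 was not called at -0.16 (adjusted p = 0.177). NPRL3 and these 3 genes were named after their values were seen. MTOR itself fell from 66.2 ± 4.50 to 47.6 ± 3.37 CPM (log2 fold change -0.47, SE 0.07, adjusted p = 4.10e-06).

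**Figure D4:**
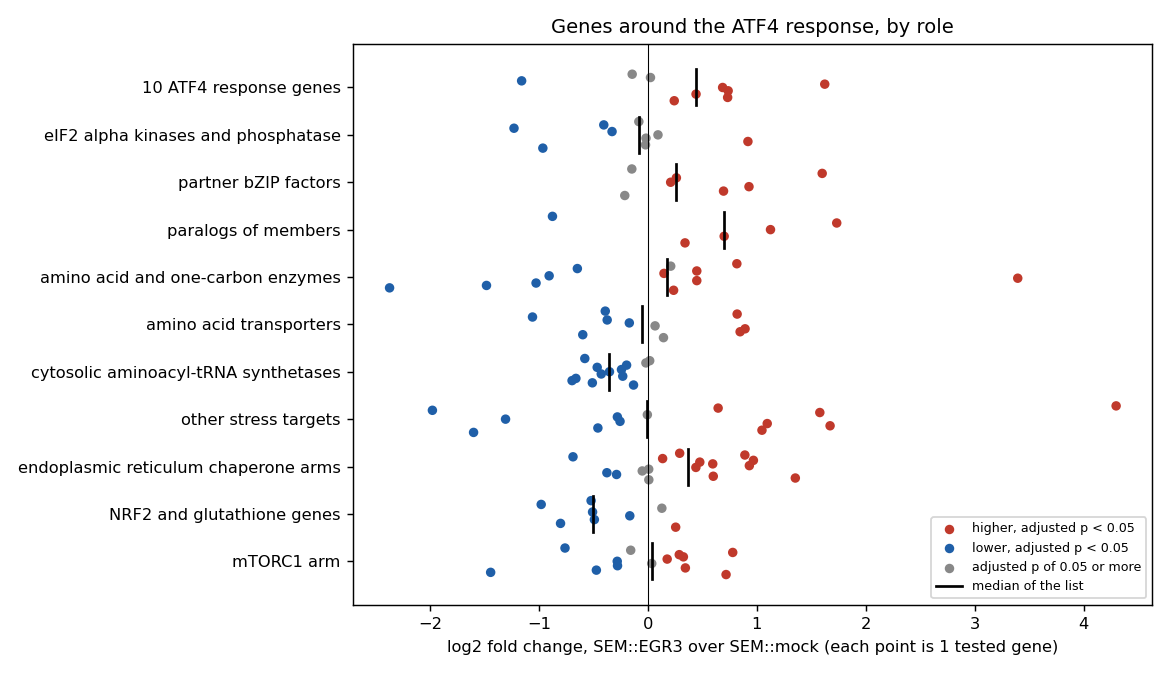
Log2 fold change of SEM::EGR3 over SEM::mock (horizontal axis) for each tested gene of the 10 ATF4 response genes and of 10 further lists of the pathway, 1 point per gene, coloured by the edgeR call, with the median of each list as a bar. The median of the synthetase list lies at -0.35, with no gene called higher, and that of the 9 tested ATF4 response genes at 0.44.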

How the data were processed

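RNA was measured by MACE-Seq, which sequences the 3′ ends of polyadenylated transcripts, in 6 libraries grouped by their titles (SEM::mock and SEM::EGR3, 3 biological replicates each). The authors deposited raw counts per gene and library. The submitters' processing notes name bcl2fastq, Bowtie2, HTSeq and GRCh38, and versions, annotation and strand use are not given in the sources used here. The column headings spell EGR3 as ERG3. Left unused were 12 columns of rescaled per-sample values and the authors' fold changes and p-values.

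The fit used edgeR 4.0.16 in R 4.3.3 (filterByExpr, TMM, glmQLFit, glmQLFTest), with p-values adjusted by Benjamini-Hochberg over 15465 of 35410 genes. The SE is the log2 fold change divided by the t value with the same p. P-values measure the spread between these libraries, whose origin from separate cultures was not stated, and intervals cover no other source of error. On simulated counts of 15052 genes for this comparison, 178 of 189 changed genes were recovered with 10 false calls. That simulation gave all genes a common dispersion and changed only 200, by a fixed factor in either direction. In the data 68.5% of tested genes were called, so it cannot show how scaling and error control hold there. Replicates differed by more than counting noise in all pairs (chi-square per degree of freedom 1.71 to 3.32).

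The members and lists were chosen with earlier results of these data known. All 10 genes, the kinase and paralog lists, and up to 3 called genes in each direction per further list, by size of change, were named. CEBPB, MTHFD2, SLC3A2, AARS1, PDIA4 and GSR were named besides, after their calls were seen to be unstable. Alternatives were DESeq2 1.42.0, other normalizations and filters, the replicate number as a term, a minimum absolute log2 fold change of 1, leaving out each library and, chosen after seeing the data, adding pseudogene counts. Positions come from GENCODE 29 (GRCh38), which holds 34339 of the 35410 identifiers (97.0%).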

Additional observations from a re-analysis of the deposited data

How the results depend on the processing

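The 6 increases and the decrease of SESN2 kept their calls in all 14 alternatives that left the calling threshold as it was, with log2 fold changes of 0.19 to 0.32 for ATF4, 1.55 to 1.70 for PSAT1, 0.64 to 0.84 for CHAC1 and -1.21 to -1.08 for SESN2. With a minimum absolute log2 fold change of 1, 1 of the 10 genes was higher (PSAT1) and 1 lower (SESN2). At that minimum, 10 pathway genes were higher and 9 lower, beside 2581 higher and 1315 lower of 15465 tested genes. Leaving out 1 library gave 6 to 6 of the 10 genes higher and 1 to 2 lower, TRIB3 being the second without SEM::mock replicate 3 or without SEM::EGR3 replicate 3, and 37 to 41 pathway genes higher and 42 to 47 lower. Adding pseudogene counts, chosen after seeing the data, made 2 of the 10 lower, with ASNS. The log2 fold change of SLC7A11 turned to -0.093 without SEM::mock replicate 2 and to -0.049 without SEM::EGR3 replicate 2, and was not called in either. Without normalization factors, the median log2 fold change of all tested genes moved from 0.03 to 0.11. The replicate numbers did not pair the libraries (correlations of deviations -0.25, -0.18 and -0.08 for equal numbers), and with the replicate block 6 of the 10 genes were higher, 1 lower, and 40 pathway genes higher and 43 lower. Depth limits ASNS above all, with 2 to 18 counts per library.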

Other observations

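The endoplasmic reticulum chaperone arms refold or remove unfolded protein and run beside ATF4 in the same stress. Of 16 such genes, 10 were higher in SEM::EGR3, 3 lower and 3 not called by edgeR (median log2 fold change 0.37). Among all tested genes, 36.5% were called higher and 32.0% lower. PDIA4, called higher (log2 fold change 0.14, adjusted p = 0.0336 by edgeR), lost that call in 8 of 14 alternatives. DESeq2 was among these (adjusted p = 0.0793). CRELD2, a secreted stress protein, rose from 16.4 ± 2.66 to 42.1 ± 0.817 CPM (SD, n = 3, log2 fold change 1.35), MANF, a secreted survival factor, from 56.5 ± 3.72 to 110.3 ± 1.51 CPM (0.97), and the chaperone gene HSP90B1 from 311 ± 15.2 to 592 ± 15.02 CPM (0.93). SDF2L1, part of a chaperone complex of that compartment, fell from 326 ± 16.8 to 203 ± 11.7 CPM (-0.69), and DNAJC3, an inhibitor of eIF2 alpha kinases, from 27.3 ± 3.39 to 21.1 ± 1.26 CPM (-0.38). DNAJB9 was called lower at a log2 fold change of -0.29 (adjusted p = 0.0469), with overlapping libraries, and lost that call in 11 of 14 alternatives.

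Of the genes of NRF2, the factor of oxidative stress, and of glutathione synthesis, 8 were tested. Among all tested genes, 36.5% were called higher and 32.0% lower. Of the 8, 1 was higher, 6 were lower and 1 was not called (median log2 fold change -0.50). GSR, called lower (log2 fold change -0.17, adjusted p = 0.0191 by edgeR), lost that call in 5 of 14 alternatives. DESeq2 was 1 of them (adjusted p = 0.0501). HMOX1, heme oxygenase, did not pass the filter on low counts and went the other way, with 0 counts in each SEM::mock library and 13, 9 and 24 in SEM::EGR3 (named after its counts were seen), and without that filter 2 genes of the list were called higher. NQO1, a quinone reductase, fell from 98.6 ± 6.10 to 49.9 ± 2.59 CPM (SD, n = 3, log2 fold change -0.98), GCLM, the modifier subunit of glutathione synthesis, from 78.3 ± 6.88 to 44.5 ± 2.88 CPM (-0.80), and TXNRD1, thioredoxin reductase, from 109 ± 6.19 to 75.6 ± 2.81 CPM (-0.52). The catalytic subunit gene GCLC was called higher at 0.25 (adjusted p = 0.0208 by edgeR), a call lost with DESeq2 (adjusted p = 0.081) and when replicate 3 of SEM::mock (0.157) or of SEM::EGR3 (0.071) was left out.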
